A study of Mus musculus with 8 samples.

Results

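The expression of 10 genes of calcium storage and release in heart muscle cells was followed across 8 arrays: Sln, Pln, Atp2a2, Ryr2, Casq2, Slc8a1, Hrc, Trdn, Jph2 and Srl. They were taken by name, and the array carried 26 probes for these 10 genes, out of 41174 non-control probes for 27729 gene names. The samples were hearts of mouse embryos at stage E10.5 of the minKGFP transgenic line, which carries a bacterial artificial chromosome reporter of green fluorescent protein (GFP) named for minK, the product of Kcne1. Hearts were dissociated with pancreatin and collagenase, and a cell sorter divided the cells by brightness into 4 GFP-high samples, labelled conduction system cells, and 4 GFP-low samples, labelled chamber myocardium. Cells of both groups carried the transgene and came from embryos of the same stage, the gate on GFP was the only stated difference, and the number of embryos behind a sample is not given in the sources used here.

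In heart muscle, each beat releases calcium from the sarcoplasmic reticulum through a channel, and a pump returns it. The pump is held back by small membrane peptides, and proteins inside the reticulum bind calcium and tie the store to the release channel. In adult rodent hearts sarcolipin, the product of Sln, is known as an atrial pump inhibitor, and phospholamban, the product of Pln, as the main ventricular one.

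The probe sequences below are those the array used for the regulators, the pump, the release channel, the exchanger and a luminal binding protein, and they show the stretch of transcript behind the values of each gene, except for Atp2a2. For Atp2a2 the probe shown is one that the files assign to transcript variant 2, while the level of the gene was read from another probe, described with its values. They are given 5′ to 3′ as deposited, in lower case, whole except for Sln and Pln, of which bases 1 to 30 of the 60 are shown. No base is singled out.
Sln: gccttagctttgttccctagcaaatgtact
Pln: caaaacagtttatgcctaactttgcaaacc
Atp2a2: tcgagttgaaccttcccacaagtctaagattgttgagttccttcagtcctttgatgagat
Ryr2: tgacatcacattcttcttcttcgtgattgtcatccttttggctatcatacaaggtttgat
Slc8a1: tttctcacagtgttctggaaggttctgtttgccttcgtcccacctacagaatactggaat
Hrc: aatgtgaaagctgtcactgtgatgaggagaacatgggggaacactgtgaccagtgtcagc

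On mouse build mm9, as the files give positions, the Sln probe lies at chr9:53701574-53701633 on the plus strand and the Pln probe at chr10:53064944-53065003 on the plus strand. The Atp2a2 probe shown lies at chr5:122910660-122910719 and the Slc8a1 probe at chr17:81807555-81807614, both on the minus strand. The Ryr2 probe runs over chr13:11650372-11652843 on the minus strand and the Hrc probe over chr7:52593267-52593524 on the plus strand, intervals longer than the 60 bases of the probe, so their bases map in more than 1 block. No mm9 annotation was used, so whether a probe is exonic, coding or in an untranslated region is not stated. Over all 26 probes the share of G and C ran from 35.0% to 51.7%.

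Of the 26 probes, 15 were well above background on all 8 arrays, 3 on 4 to 7 arrays, 5 on 1 to 3 arrays and 3 on none. The probe with the highest mean signal stood for its gene, and a gene was tested when 4 or more arrays had that probe well above background. Under this rule 9 of the 10 genes were tested, among 12875 in all, and Trdn was not. Levels are log2 signals minus the 75th percentile of the array, so 0 is the level of that percentile. Differences are GFP-high minus GFP-low on the same log2 scale, and levels are compared only for the same probe.

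None of the 9 tested members passed the threshold of an adjusted p of 0.05 (limma, Benjamini-Hochberg over all 12875 genes), a threshold that 0.14% of all tested genes passed. At an unadjusted limma p under 0.05 there was 1 member, Sln, against 14.3% of all tested genes. Sln was also the only member whose arrays did not overlap between the groups, where 8.94% of all tested genes had such separation and 5.86% had it with GFP-high above GFP-low. The share of members with a positive difference was 6 of 9, beside 62.1% of all tested genes. Their median difference was 0.31, beside 0.16 for all tested genes. By these counts and this median the members stood close to the whole array.

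Sln, which encodes the pump inhibitor sarcolipin, read 1.96, 0.71, 1.22 and 0.90 on the GFP-high arrays of replicates 1 to 4. On the GFP-low arrays it read -1.52, -0.61, -1.08 and -0.40. All 4 GFP-high arrays lay above the 75th percentile of their array and all 4 GFP-low arrays below it. The means were 1.20 ± 0.55 and -0.90 ± 0.50 (SD, n = 4 each), a difference of 2.10 ± 0.37 (SE), or 4.29-fold, with a 95% interval from 1.26 to 2.94. The limma adjusted p was 0.104, which misses the threshold, and the exact two-sided permutation test over the arrays gave p = 0.0286, the smallest that 4 against 4 arrays allow. Within slide 1, which held replicates 1 and 2 of both groups, the difference was 2.40, and within slide 2 it was 1.80. Among all tested genes the difference of Sln was at the 99th percentile and its p ranked 43rd.

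Averaging both Sln probes lowered the difference to 1.16. The other probe (chr9:53701962-53702021, plus strand), designed on a cDNA clone from adult tongue, was not well above background on any of the 8 arrays and gives no second reading of the gene. In sorted bulk samples, a larger share of cells with Sln RNA and more Sln RNA per cell cannot be told apart.

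**Figure D1:**
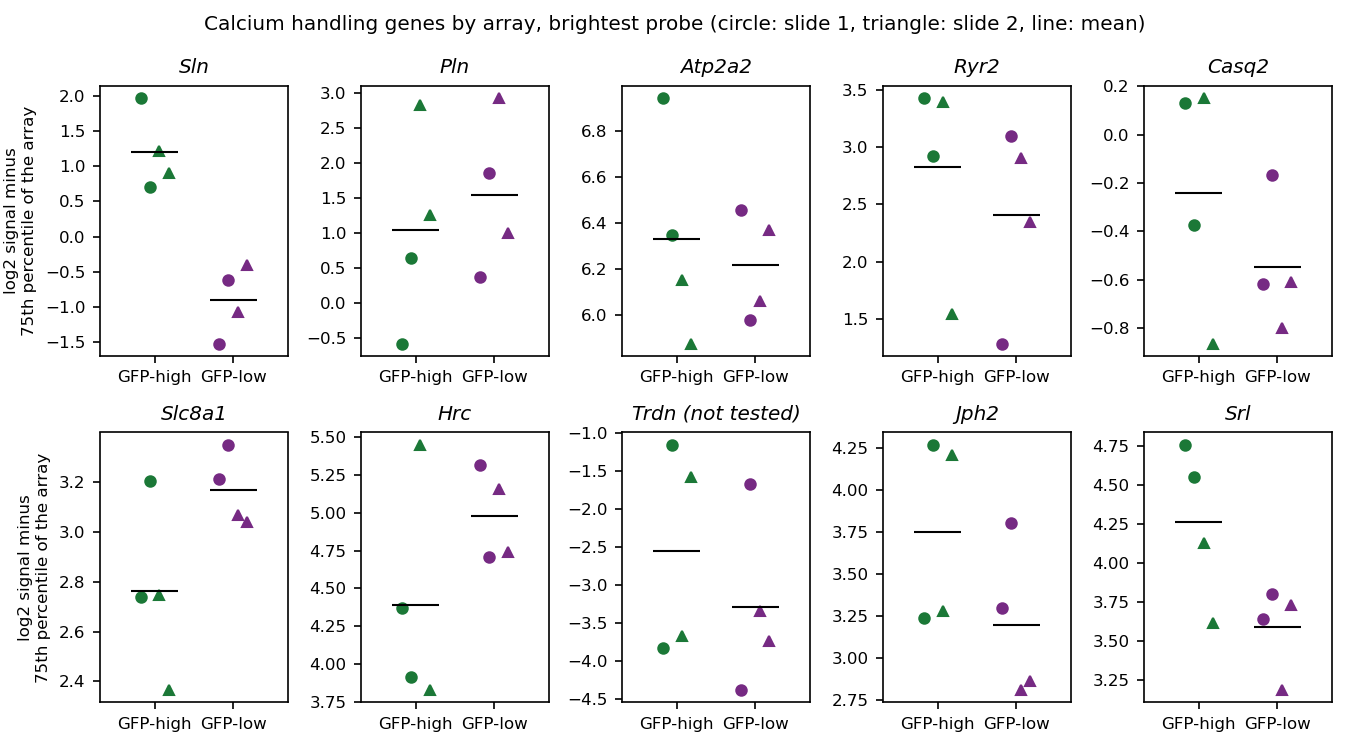
Log2 signal minus the array's 75th percentile (y axes, each on its own range) for the brightest probe of each gene in GFP-high and GFP-low arrays; circles are slide 1, triangles slide 2, and lines group means of 4 arrays. Only the Sln panel has groups that do not overlap, with means of 1.20 and -0.90, while Pln spans from -0.58 to 2.92.

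Since Sln is known as an atrial gene, the atrial markers are given beside it. All 10 atrial markers (Nppa, Myl7, Myl4, Nr2f2, Nr2f1, Bmp10, Gja5, Kcna5, Pam and Dkk3) were measured, none passed, and 5 were positive. Arrays did not overlap for 5 of the 10, beside 8.94% of all tested genes. Of these, 2 were higher in GFP-high (Pam, 0.85, and Dkk3, 0.56) and 3 lower (Nppa, -0.89, the nuclear receptor Nr2f2, -1.63, and its relative Nr2f1, -2.0). The summed level of the list ran from 9.81 to 10.4 in GFP-high and from 9.68 to 10.4 in GFP-low. Most of this sum came from Myl4 (means of 9.15 and 8.72) and Myl7 (8.78 and 8.46), so it hardly reflects the dimmer markers. The part of atrial cells in the difference of Sln was not tested.

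Pln, which encodes phospholamban, had 1 probe and no direction. It read -0.58, 0.65, 2.82 and 1.26 on the GFP-high arrays of replicates 1 to 4 and 0.37, 1.86, 2.92 and 1.01 on the GFP-low arrays. The arrays of replicate 3 were the highest of their group and those of replicate 1 the lowest, so the groups overlapped over nearly their whole range. The means were 1.04 ± 1.41 and 1.54 ± 1.1 (SD, n = 4 each) and the difference was -0.50 ± 0.78 (SE, limma adjusted p = 0.774), with a 95% interval from -2.27 to 1.27. The difference was -1.08 within slide 1 and 0.078 within slide 2. Pln had a within-group SD of 1.27, larger than that of 87.2% of all tested genes, whose median was 0.57. The interval spans 0 widely, and these arrays do not settle the direction of Pln.

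Atp2a2, which encodes the calcium pump SERCA2, had the smallest difference of the tested members. Its brightest probe (chr5:122903704-122903763, minus strand), which the files assign to both RefSeq transcripts of the gene, read 6.95, 6.35, 6.15 and 5.87 in GFP-high and 6.46, 5.98, 6.06 and 6.37 in GFP-low, and the groups overlapped. The difference was 0.11 ± 0.29 (SE, limma adjusted p = 0.868), with a 95% interval from -0.55 to 0.77. The probe printed above, which the files assign to transcript variant 2, gave 0.31 ± 0.38 (SE), and a probe they assign to variant 1 gave -0.20 ± 0.28. Whether either probe reads a single variant was not checked, so these values do not set variant 2 against variant 1. Another probe, designed on a cerebellar cDNA clone, gave 1.60 ± 0.83 but was above background on only 2 GFP-low arrays. The sign for the brightest probe turned with normexp background correction, at -0.072, or -0.14 with quantile normalisation, and within slide 2, at -0.20. It turned also without GFP-high replicate 1, at -0.092.

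Ryr2, which encodes the cardiac release channel, read 3.43, 2.93, 3.40 and 1.54 in GFP-high and 1.29, 3.10, 2.90 and 2.35 in GFP-low on the probe printed above. A single low array in each group, GFP-high replicate 4 and GFP-low replicate 1, set much of its spread. The difference was 0.41 ± 0.54 (SE, limma adjusted p = 0.731), with an interval from -0.82 to 1.65. It was 0.84 without GFP-high replicate 4 and 0.040 without GFP-low replicate 1. It was 0.99 within slide 1 and -0.16 within slide 2, and the second measured probe gave -0.10. The remaining Ryr2 probe was above background on 3 arrays and was not tested.

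The genes for calcium binding inside the reticulum did not share a direction. Casq2, which encodes cardiac calsequestrin, read 0.13, -0.38, 0.15 and -0.86 in GFP-high and -0.62, -0.17, -0.80 and -0.61 in GFP-low, a difference of 0.31 ± 0.30 (SE, limma adjusted p = 0.646). Here 2 GFP-high arrays lay above all GFP-low arrays and GFP-high replicate 4 below them all. Srl, which encodes sarcalumenin, a calcium-binding glycoprotein of the reticulum, read 4.76, 4.55, 4.12 and 3.61 in GFP-high and 3.64, 3.80, 3.18 and 3.73 in GFP-low. Of the members other than Sln it had the smallest p, with 3 GFP-high arrays above all GFP-low arrays. Its difference was 0.67 ± 0.31 (SE, limma adjusted p = 0.365), with an interval from -0.039 to 1.38, and it was 0.93 and 0.41 within the slides. Hrc, which encodes the histidine-rich calcium-binding protein, had the opposite sign. It read 4.37, 3.92, 5.45 and 3.83 in GFP-high and 5.32, 4.71, 5.16 and 4.74 in GFP-low, a difference of -0.59 ± 0.39 (SE, limma adjusted p = 0.502). Here 3 GFP-high arrays lay below all GFP-low arrays and GFP-high replicate 3 above them all. Without that array the difference was -0.94 (limma adjusted p = 0.154).

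Slc8a1 encodes the sodium-calcium exchanger NCX1 of the surface membrane, which removes calcium from the cell. Its brightest probe, printed above, read 2.74, 3.20, 2.75 and 2.37 in GFP-high and 3.21, 3.35, 3.07 and 3.04 in GFP-low. It had the smallest within-group SD of the members, 0.26, and a difference of -0.41 ± 0.25 (SE, limma adjusted p = 0.472), with an interval from -0.98 to 0.16. Of its 7 probes 5 were measured on at least 4 arrays. The probe spanning chr17:81785355-81788176 gave -0.31, the 2 dimmer ones -0.89 and -0.66, and the probe at chr17:81844202-81844261, designed on a partial cDNA of isoform NaCa3, 0.64. Of the 4 members with 2 or more measured probes, Atp2a2, Ryr2 and Slc8a1 had probes of both signs and Jph2 had not.

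Jph2 encodes junctophilin 2, which holds the reticulum against the surface membrane. It read 3.24, 4.27, 3.28 and 4.21 in GFP-high and 3.30, 3.80, 2.81 and 2.87 in GFP-low, a difference of 0.56 ± 0.36 (SE, limma adjusted p = 0.495), with 0.37 on its other probe. The GFP-high arrays of replicates 2 and 4 lay above all GFP-low arrays, and the other 2 lay within their range. Trdn encodes triadin, which links calsequestrin to the release channel. Of its 4 probes the brightest was above background on 2 GFP-high arrays and 1 GFP-low array, another on 1 GFP-low array and 2 on none. The Trdn probes thus read at the limit of what these arrays measure, which does not settle the level of its RNA, and no difference is given.

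**Figure D2:**
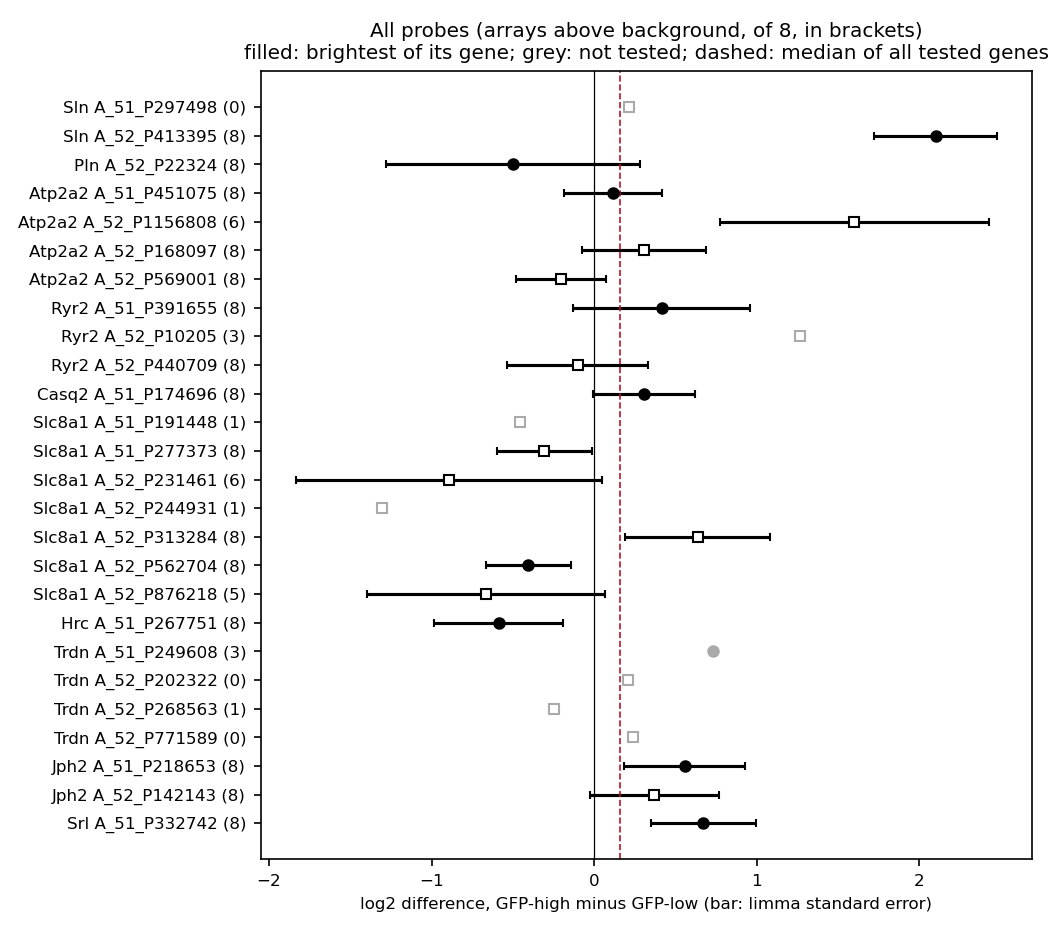
Log2 difference, GFP-high minus GFP-low, for all 26 probes of the 10 genes, with the limma standard error for the 18 probes measured on at least 4 arrays; grey points were not tested and the dashed line is the median of all tested genes. The brighter Sln probe lies at 2.10, and the measured probes of Atp2a2, Ryr2 and Slc8a1 fall on both sides of 0.

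The regulators were then set against the pump, release channel and luminal binding proteins within each array, which removes whatever scales all genes of an array alike. Each gene was centred on its mean over the 8 arrays, and the mean of Atp2a2, Ryr2, Casq2, Hrc and Srl was subtracted from the mean of Sln and Pln. This contrast was -0.53, -0.09, 0.87 and 0.98 on the GFP-high arrays and -1.09, -0.16, 0.32 and -0.31 on the GFP-low arrays. The groups overlapped, with means of 0.31 ± 0.74 and -0.31 ± 0.59 (SD, n = 4 each). The difference of 0.62 was 0.31 within slide 1 and 0.92 within slide 2. It was 0.054 with the mean over the probes of a gene, which takes in the Sln probe that read at background. No test was made, since it is a score over chosen genes. The mean of the 5 genes without the regulators differed by 0.18, close to the 0.16 of the median gene.

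The regulators did not follow each other across the arrays. Sln minus Pln was 3.68, 1.20, -0.46 and 0.79 on the GFP-high arrays and -0.75, -1.33, -2.86 and -0.27 on the GFP-low arrays, overlapping only through GFP-high replicate 3. Relative to the other 8 tested members, Sln was separated between the groups in 6 of 8 cases, with differences from 1.43 against Srl to 2.69 against Hrc. The exceptions were Pln and Jph2. Against all 12874 other tested genes Sln was separated in 69.4%, so this share is near the background and says nothing particular to calcium handling. Sln minus Atp2a2, the inhibitor against its pump, was 1.14, 0.48, 1.19 and 1.15 in GFP-high and -1.85, -0.47, -1.01 and -0.65 in GFP-low. That is a 3.96-fold difference of their ratio, of 1.97 within slide 1 and 2.00 within slide 2 on the log2 scale. Pln was separated from none of the other 8 members, beside 1.07% of all tested genes, and Pln minus Atp2a2 differed by -0.61.

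**Figure D3:**
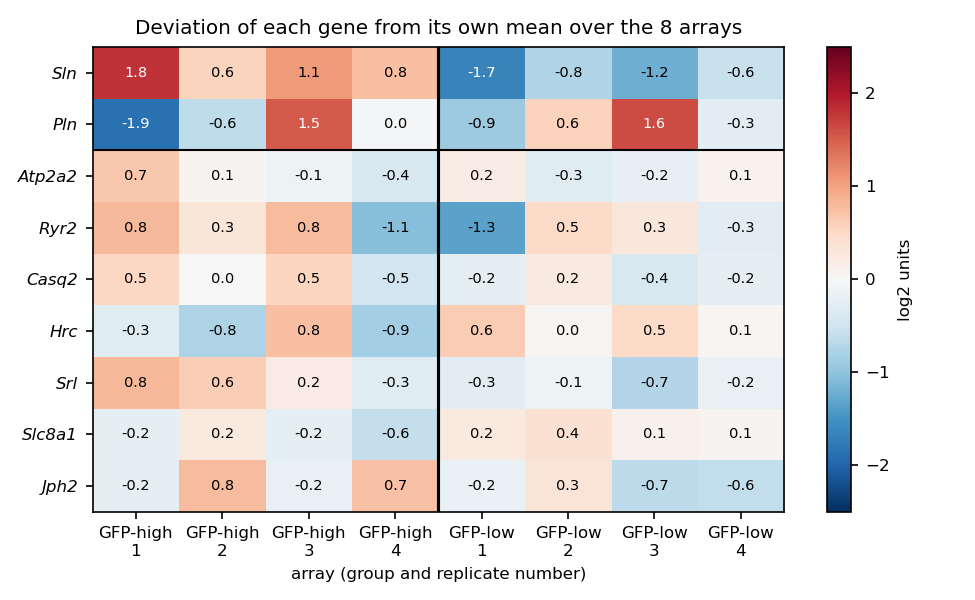
Deviation of the 9 tested genes from their own mean over the 8 arrays, in log2 units, by array; red is above and blue below the mean. The Sln row changes sign at the line between the groups, whereas Pln is highest on the arrays of replicate 3 of both groups.

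**Figure D4:**
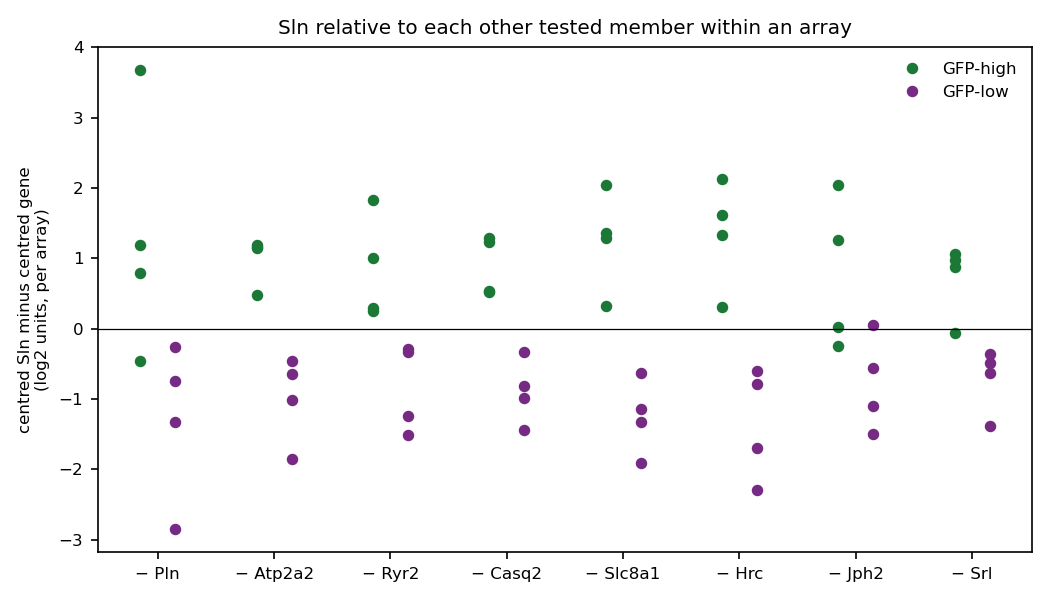
Sln minus each other tested member within an array, in log2 units after centring; each point is 1 array. The GFP-high and GFP-low points do not overlap for Atp2a2, Ryr2, Casq2, Slc8a1, Hrc and Srl, and overlap for Pln and Jph2.

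Among themselves, the members most alike over the 8 arrays were Casq2 and Srl, with a root mean square distance of 0.325 log2 units after centring. Atp2a2 followed at 0.362 from each of them. By the same measure over 8 arrays, the 5 tested genes nearest to Sln were Eef1a2 (0.354), a translation elongation factor gene of muscle and neurons, Zkscan14 (0.359), Gstm7 (0.382), a glutathione S-transferase gene, 2310010J17Rik (0.442) and Shroom1 (0.473), an actin-binding gene. Since Sln itself was separated between the groups, nearness to it fixed the separation of these 5 genes, which is therefore no further result. Shroom1 was not well above background on any GFP-low array, so its distance rests in part on background values. The 5 nearest to Pln were Klhl24 (0.428), Casd1 (0.428), Aff4 (0.462), B930046C15Rik (0.489) and Oma1 (0.491), none of which was separated between the groups.

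Beyond the 10 genes, 56 other genes of calcium handling were listed, namely other pumps, channels, buffers, kinases and store sensors, of which 41 were tested. None passed, and at an unadjusted limma p under 0.05 there were 4 higher and 4 lower, beside 7.94% and 6.38% of all tested genes. The list had 30 positive members of 41, beside 62.1% of all tested genes, and a median of 0.22 beside 0.16. Arrays were separated for 3 of the 41, near the 8.94% of all tested genes. The smallest p among the higher ones belonged to Orai3, which encodes a store-operated calcium channel of the surface membrane. It read 2.94, 1.68, 2.83 and 2.95 in GFP-high and 1.36, 0.14, 0.60 and 0.89 in GFP-low, so the groups did not overlap, and its difference was 1.85 ± 0.39 (SE, limma adjusted p = 0.145). Fkbp1b, whose product binds the release channel, had a difference of 0.87 ± 0.31 (0.287), and S100a1, which encodes a calcium sensor that acts on the pump and release channel, one of 0.91 ± 0.34 (0.296).

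On the lower side, Jph1, the junctophilin of skeletal muscle, had -2.57 ± 0.80 (SE, limma adjusted p = 0.244), but it was above background on 1 GFP-high array only. Canx, which encodes the chaperone calnexin of the endoplasmic reticulum, read 4.14, 5.10, 5.78 and 5.33 in GFP-high and 6.05, 6.36, 6.70 and 5.85 in GFP-low, without overlap, a difference of -1.15 ± 0.38 (0.262). Stim1, which encodes the sensor of store calcium that opens Orai channels, had -1.15 ± 0.45 (0.313). Orai3 and Stim1 are partners in store-operated entry, and neither passed. Each was named here for its direction, so their opposite signs are no further result.

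**Figure D5:**
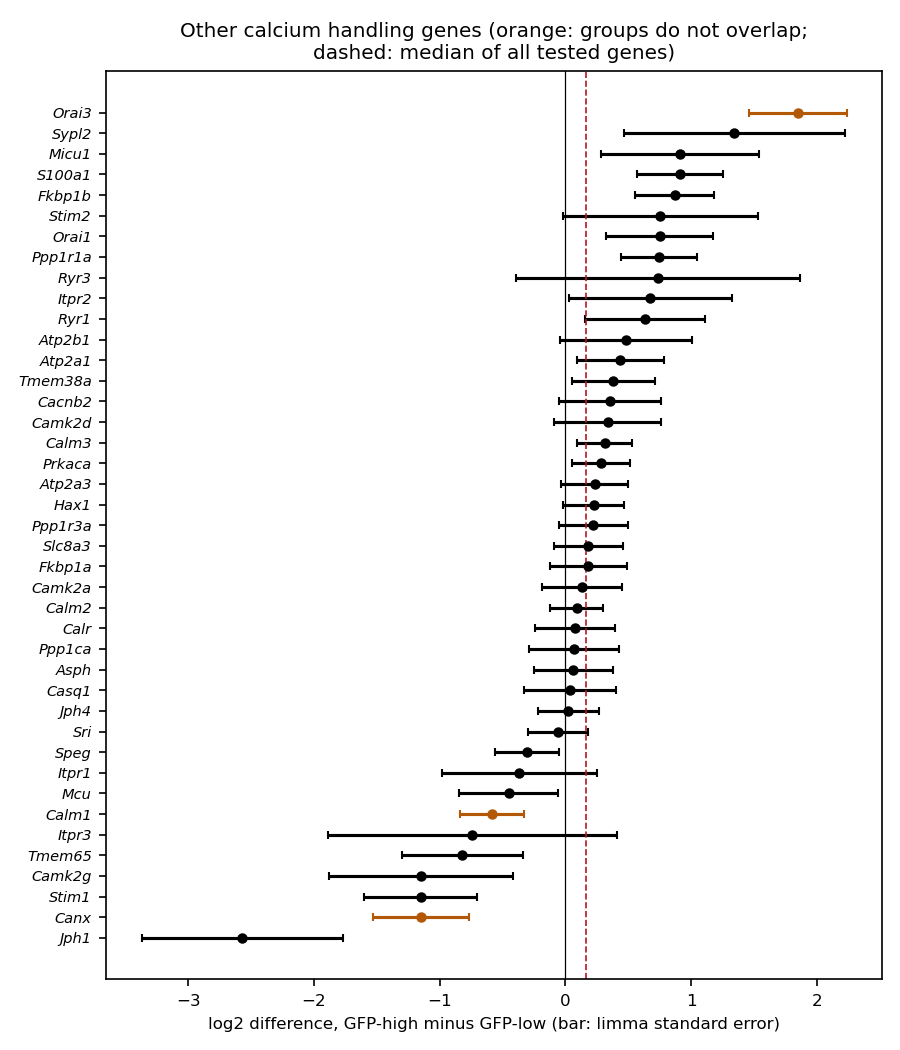
Log2 difference, GFP-high minus GFP-low, with the limma standard error for the 41 tested calcium handling genes outside the 10; orange marks groups that do not overlap and the dashed line the median of all tested genes. Orai3 at 1.85 is highest and Jph1 at -2.57 lowest, and none passed over all genes.

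Between 36.3% and 50.7% of the spots of an array were well above background, and no spot was saturated. Kcne1, the gene behind the reporter, was higher on every GFP-high array, by 1.29 on its brighter probe and 2.83 on its other one. This checks the direction of the sort, but Kcne1 did not pass (limma adjusted p 0.202, brighter probe). Among 13 measured conduction markers 10 were positive. Cacna2d2 passed (1.87, limma adjusted p 0.0465), a call lost with the replicate number as a block, under which 0 genes passed. Smoc2 entered the test through the GFP-low arrays alone, being above background on no GFP-high array, and is not counted as a call among these markers. The 0.14% of all tested genes that passed does include it. All 10 general cardiomyocyte markers were measured and positive without passing, and their summed level ran from 11.5 to 12.2 in GFP-high and from 11.0 to 11.8 in GFP-low. Of the ventricular markers 5 of 10 were positive and none passed. At an unadjusted limma p under 0.05, 3 were lower and 1 higher, beside 6.38% and 7.94% of all tested genes. The lower ones were Cited1 (-1.61, limma adjusted p 0.0724), Gja1 (-1.53, adjusted p 0.202) and Hand1 (-1.33, adjusted p 0.145). The higher one was Lbh (0.68, adjusted p 0.313). Of markers of endothelium 5 of 10 were measured, epicardium 6 of 10, cushion mesenchyme 5 of 10, smooth muscle 7 of 8, red cells 6 of 10, leukocytes 2 of 10 and neural cells 2 of 10, none past the threshold. Leukocyte markers had a summed level of 3.41 to 3.92 in GFP-high and 1.78 to 2.44 in GFP-low, from Lyz2 and Cd68 alone. Lyz2 made most of it, with means of 3.56 and 2.10, and the Cd68 arrays overlapped. Epicardial markers summed to 4.59 to 5.21 in GFP-high and 3.81 to 4.54 in GFP-low, mostly from Krt18, Krt8 and Krt19. No epicardial marker was separated on its own, and Wt1, Tcf21 and Aldh1a2 were dim. The part of these cells in the results above was not tested.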

How the data were processed

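RNA of 8 sorted samples was measured on 1-colour Agilent arrays. Per the labels' protocols, 5 ng of total RNA was amplified and 2 ug of product labelled. The deposited intensity values are linear. They come from Agilent Feature Extraction 10.5.1.1, per the submitters' processing notes, with spatial and multiplicative detrending and surrogates for the lowest values (34.8% to 49.4% of spots), per the file headers. The deposited whole-series table held identical intensity values in all 360144 cells, linear and unscaled, with array medians of 12.2 to 19.9. Here each processed signal was put on the log2 scale, the 75th percentile of its array was subtracted, and the result was fitted with limma 3.58.1 in R 4.3.3 (group only, 4 against 4 arrays, Benjamini-Hochberg over all genes). Flagged outlier spots were left out. Symbols came from the files or, for 33070 probes, from the RefSeq table of GRCm38.p6. Array number limits the precision, and the fit was tested on simulated data. The named genes were the 10 members, other calcium genes with the 3 smallest p per direction and the 5 genes nearest to Sln and Pln. Members and lists were chosen with earlier results of these data known. Alternatives covered background, scaling, probe choice, filters, slide, replicate number and left-out arrays. The labels call the samples biological replicates.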

Additional observations from a re-analysis of the deposited data

How the results depend on the processing

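No member passed the threshold under any of the 23 alternatives run. Of the 9 tested members, 5 or 6 had a positive difference. With no filter on dim probes it was 7 of 10, since Trdn, read at background, then entered. Sln kept its sign in 22 alternatives, with differences from 1.16 to 2.40 and limma adjusted p from 0.0693 to 0.659. Casq2, Jph2 and Srl stayed positive and Slc8a1 and Hrc negative in the same 22. Pln turned to 0.078 within slide 2 and to 0.038 without GFP-high replicate 1, and ran from -1.10 to 0.038 when 1 array was left out. Atp2a2 turned to -0.072 and -0.14 with normexp without and with quantile normalisation, to -0.20 within slide 2 and to -0.092 without GFP-high replicate 1, and ran from -0.092 to 0.26 when 1 array was left out. Ryr2 turned to -0.16 within slide 2 and ran from 0.040 to 0.84 when 1 array was left out, and Casq2 ran from 0.18 to 0.52. The cause was not tested. The contrast of regulators against the other genes ran from 0.054 to 0.92. The lowest value came with the mean over the probes of a gene, the Sln probe at background included, and the next was 0.31 within slide 1. Over all genes, 18 passed; the number was 4 with scaling on the median of always-measured probes, 42 with the common floor, 3 with no filter on dim probes, 11 with only genes above background on all arrays, 11 with the slide as a block, 7 with every probe as its own feature, and 0 within each slide. It lay between 0 and 7 when 1 array was left out. The labels do not say whether replicate numbers pair the samples, and the arrays did not settle it. Deviations of same-numbered arrays correlated at 0.114, 0.153, 0.303 and 0.0647, above the means with other numbers of -0.0406, -0.0452, -0.107 and -0.0196. Of the 4 numbers, 3 matched best with themselves. With the replicate block 0 genes passed and Sln had a limma adjusted p of 0.179.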
